A study of Papio anubis with 60 samples.

Results

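The regions described here are the peaks of trimethylated lysine 9 of histone H3 (H3K9me3) on the 20 autosomes of the olive baboon, Papio anubis, in embryonic stem cells (ESC) and in iPSC, the induced pluripotent stem cells that reprogramming yields from somatic cells. All rows of chromosomes 1 to 20 in the H3K9me3 peak list of each cell type were taken, with no further choice. They number 469818, of which 260371 came from the ESC list and 209447 from the iPSC list, out of 601109 H3K9me3 peaks on all chromosomes and scaffolds and 2116963 peaks of all marks in the series. The questions were how wide the marked domains were, on which chromosomes and in which stretches they lay, and where the lists of the cell types differed.

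H3K9me3 is written by the histone methyltransferases SETDB1, SUV39H1 and SUV39H2 and is bound by heterochromatin protein 1 (HP1), which compacts chromatin. In pluripotent cells it silences endogenous retroviruses and other repeats through the corepressor TRIM28 and the Krüppel-associated box zinc finger proteins, and it lies over pericentromeric and subtelomeric repeats and over clusters of zinc finger genes. Broad H3K9me3 domains of somatic cells are known as a barrier to reprogramming, so this mark is often used to compare iPSC with ESC.

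The ESC were of lines B4 and B15 and the iPSC of lines 160-2 and M14939#3, all kept on feeder cells in the same medium. Each cell type had 6 H3K9me3 libraries, 3 replicates of each of 2 lines, and each library was made from 50000 cells by chromatin immunoprecipitation after micrococcal nuclease digestion. Other libraries of the same lines covered H3K4me3, H3K27ac, H3K27me3 and input, 60 libraries in all. No treatment, genotype or passage is named in the labels. The data are 1 peak list per cell type and mark, so a list has no replicate. No test between cell types was possible, and cell type cannot be told apart from line. The sources used here do not say how the libraries of a cell type were combined, so a feature of the iPSC list may come from either line or from both. The depth behind each list is unknown, and the length of a list can move with it. Expression markers of pluripotency were not part of these data, so the labelled cell types were not checked against them. No genome of the build of the lists was at hand, so no gene is named and no sequence is printed.

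H3K9me3 covered more of the autosomes in ESC than in iPSC, through more peaks rather than wider ones. The peaks covered 219.5 Mb in ESC, which is 8.46% of the 2594 Mb of autosomes, and 180.6 Mb (6.96%) in iPSC. The iPSC list held 0.804 times as many peaks as the ESC list, and their mean width was 1.02 times that of ESC peaks (862 and 843 bp). The density was 100.4 peaks per Mb in ESC and 80.7 in iPSC. In both lists most peaks were short: 75.3% in ESC and 75.2% in iPSC were under 1 kb. A single peak of over 20 kb was rare, with 54 in ESC and 60 in iPSC. The covered sequence in common was 134.3 Mb, which made up 61.2% of the ESC coverage and 74.4% of the iPSC coverage. When the ESC list was shortened to the 209447 peaks with the highest −log10 q, the iPSC list covered 0.913 times the sequence of the ESC list, against 0.823 times with the full lists.

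Peaks of a list that lay within 3 kb of each other were joined to domains, which were sorted by width into classes of under 1, 1 to 5, 5 to 20 and over 20 kb. The ESC list formed 149423 domains and the iPSC list 120449. ESC had more domains than iPSC in each class: 75908 against 65392 under 1 kb, 54029 against 42489 of 1 to 5 kb, 18720 against 11830 of 5 to 20 kb, and 766 against 738 over 20 kb. In relative terms the class of 5 to 20 kb thus differed most in number, and the class over 20 kb least. In sequence spanned, the order turned in the widest class. Domains over 20 kb spanned 34.7 Mb in ESC and 56.9 Mb in iPSC, or 9.78% and 20.2% of all the sequence in domains. Those of 5 to 20 kb spanned 153.6 Mb in ESC and 94.7 Mb in iPSC, and those of 1 to 5 kb 133.2 and 102.3 Mb. The gaps between joined peaks took less of the domains over 20 kb, with peaks over 67.2% of their span in ESC and 69.0% in iPSC, against 52.3% and 51.5% in the class of 5 to 20 kb. The order of the numbers over 20 kb was not stable. It turned with peaks of a −log10 q of at least 2 (557 in ESC and 639 in iPSC) or 3 (411 and 535), with the shortened ESC list (570 and 738), without joining (54 and 60) and with joining within 1 kb (290 and 584), and held with joining within 10 kb (12081 and 7257). The larger iPSC span became the smaller one (0.617 times that of ESC) when joining reached 10 kb.

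**Figure D1:**
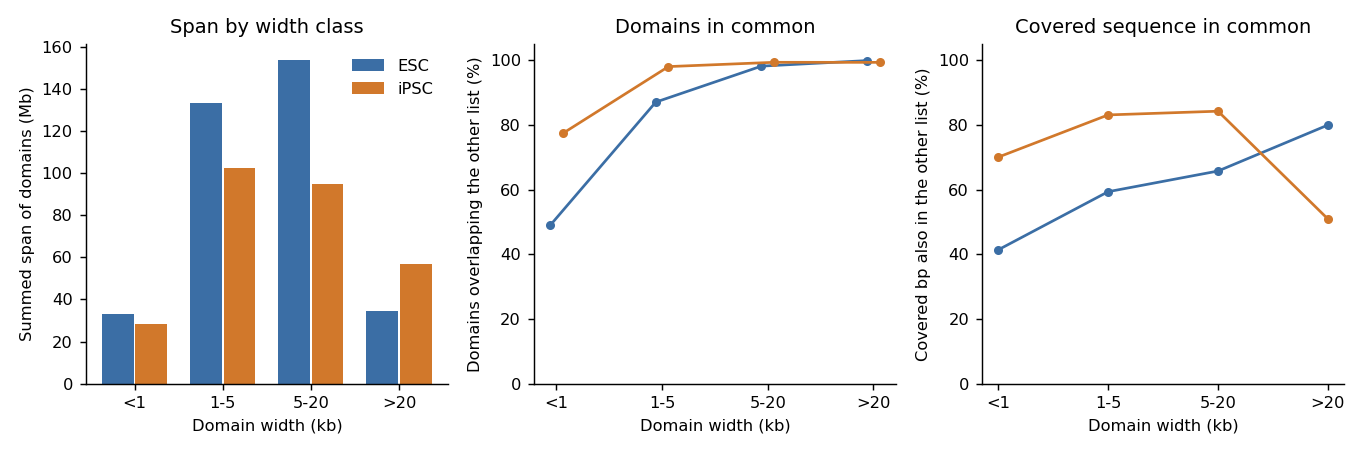
H3K9me3 domains of the autosomes by width class in ESC (blue) and iPSC (orange): the summed span in Mb, the percent of domains that share at least 1 bp with a peak of the other list (with 95% Wilson intervals, smaller than the points), and the percent of covered base pairs that the other list also covers. Domains over 20 kb span 34.7 Mb in ESC and 56.9 Mb in iPSC, and it is in this class that the iPSC share of covered sequence in common drops to 50.9%.

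In number, the narrowest domains carried most of the difference in presence. Of all ESC domains, 46107 held no iPSC peak (30.9% of 149423), and of all iPSC domains 15722 held no ESC peak (13.1% of 120449). Among domains under 1 kb the shares without a peak of the other list were 51.1% in ESC (95% Wilson interval 50.7 to 51.4) and 22.6% in iPSC (22.3 to 22.9). They were 13.0% (12.7 to 13.2) and 1.98% (1.86 to 2.12) at 1 to 5 kb, and 1.84% (1.66 to 2.05) and 0.659% (0.529 to 0.822) at 5 to 20 kb. Over 20 kb, 1 of 766 ESC domains and 5 of 738 iPSC domains had no counterpart. These intervals cover counting error only, and neighbouring domains are not independent. In span, ESC domains without an iPSC peak took 14.4 Mb under 1 kb, 15.3 Mb at 1 to 5 kb and 2.23 Mb at 5 to 20 kb. The iPSC domains without an ESC peak took 4.79, 1.79 and 0.690 Mb in the same classes. A wide domain meets a peak of the other list more easily than a narrow one, so the covered base pairs were also compared. The share of ESC covered sequence that was also covered in iPSC rose with width, from 41.4% under 1 kb through 59.4% and 65.7% to 79.95% over 20 kb. The iPSC list did not follow this order. Its share was 70.0% under 1 kb, 83.1% at 1 to 5 kb, 84.2% at 5 to 20 kb and 50.9% over 20 kb. All these shares lay above the part of the autosomes that the other list covered, 6.96% for iPSC and 8.46% for ESC.

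Domains without a counterpart were the weaker ones of their own list in each class up to 20 kb. Among ESC domains under 1 kb, the median of the best fold enrichment in a domain, a value of the authors' peak caller, was 2.21 without an iPSC peak and 2.60 with one, and the median widths were 0.329 and 0.481 kb in the same order. At 1 to 5 kb the folds were 2.37 and 2.91, and at 5 to 20 kb 2.51 and 3.24. Within the iPSC list they were 2.28 and 2.51 under 1 kb, 2.50 and 2.85 at 1 to 5 kb, and 2.82 and 3.16 at 5 to 20 kb. H3K27ac also differed between these sets. In ESC this mark of active enhancers and promoters touched 17.2% of the ESC domains under 1 kb that had no iPSC peak and 9.81% of those in common, although the former were narrower. At 1 to 5 kb it touched 32.6% and 19.9%, and at 5 to 20 kb 51.0% and 37.5%. H3K27ac of iPSC touched 11.9% of the iPSC domains under 1 kb without an ESC peak and 5.22% of those in common, but 11.5% and 17.6% at 5 to 20 kb, where the former were only 78 domains. H3K4me3, the mark of active and poised promoters, did not keep 1 direction. In ESC it touched 15.0% of the domains under 1 kb without an iPSC peak and 13.5% of those in common, but 29.4% and 31.5% at 1 to 5 kb and 49.9% and 59.5% at 5 to 20 kb. In iPSC it touched 20.3% and 12.5% under 1 kb, 28.2% and 25.2% at 1 to 5 kb, and 24.4% and 47.4% at 5 to 20 kb. H3K27me3 of iPSC touched fewer of the domains without a counterpart. Among ESC domains under 1 kb it touched 7.44% of these and 32.9% of those in common. The shares were 15.2% and 61.3% at 1 to 5 kb, and 25.8% and 86.3% at 5 to 20 kb. Among iPSC domains they were 12.5% and 33.3%, 21.5% and 67.9%, and 59.0% and 91.7%. H3K27me3 of ESC went the other way in each class, at 17.7% and 10.6% of ESC domains of 5 to 20 kb. Width was not matched between these sets.

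Where a domain was present in both lists, it was mostly narrower in iPSC, and its edges were close. A total of 93206 ESC domains (62.4%) overlapped exactly 1 iPSC domain that in turn overlapped no other ESC domain. The median ratio of iPSC to ESC width in these pairs was 0.871 (quartiles 0.526 and 1.03), and the iPSC domain was the narrower one in 70.2% of pairs. The ratio was 0.953 for ESC domains under 1 kb, 0.778 at 1 to 5 kb, 0.846 at 5 to 20 kb and 0.985 over 20 kb, where 274 pairs were found. The median distance between corresponding edges was 118 bp, and 75.04% of edges lay within 500 bp of each other. The widths of the ESC domains in a class chosen by ESC width are drawn upwards by that choice, so these class ratios lean towards a narrower iPSC domain. In the opposite view, 19.4% of the iPSC domains of 1 to 5 kb lay on an ESC domain of 5 to 20 kb, while 3.75% of the ESC domains of 1 to 5 kb lay on an iPSC domain of 5 to 20 kb.

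Of the 766 ESC domains over 20 kb, 461 (60.2%, interval 56.7 to 63.6) overlapped an iPSC domain over 20 kb, and of the 738 of iPSC, 451 (61.1%, 57.5 to 64.6) overlapped an ESC domain over 20 kb. The iPSC share fell to 49.7% with peaks of a −log10 q of at least 3 and to 37.3% with joining within 1 kb. The other ESC domains mostly met iPSC domains of 5 to 20 kb, 269 (35.1%). The widest ESC domain met by a wide iPSC domain was of 1 to 5 kb in 78 cases and under 1 kb in 26, against 31 and 4 cases in the opposite view. Splitting was also unequal: 108 wide iPSC domains, spanning 26.1 Mb, each held 5 or more ESC domains, and 16 wide ESC domains, spanning 2.15 Mb, each held 5 or more iPSC domains. The most in a single domain was 146 ESC domains in iPSC and 25 iPSC domains in ESC.

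The larger iPSC span came from the widest end of the class. Domains over 100 kb numbered 59 in ESC (11.2 Mb) and 121 in iPSC (32.8 Mb), those over 200 kb 19 (5.77 Mb) and 50 (22.8 Mb), and those over 500 kb 1 and 9. Only the iPSC list had domains over 1 Mb, 5 of them, spanning 7.67 Mb. In ESC domains over 100 kb, ESC peaks covered 75.7% of the span and iPSC peaks 68.9%. In iPSC domains over 100 kb, iPSC peaks covered 75.2% and ESC peaks 32.5%. In the 5 iPSC domains over 1 Mb the ESC list covered 10.9% of the span, near its level of 8.46% over all autosomes, while the iPSC list covered 81.7%.

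Coordinates are those of the deposited lists, whose build the sources used here do not name. The widest iPSC domain ran from 132904327 to 134948734 of chromosome 8 (2044 kb, 473 peaks), with 83.7% covered in iPSC and 9.70% in ESC, where the same stretch held 146 separate domains. The next lay at 175335242 to 177054356 of chromosome 3 (1719 kb, 81.3% in iPSC and 12.5% in ESC). Chromosome 20 held the next pair, at 6745837 to 8356445 (1611 kb, 83.9% and 7.71%) and at 11867775 to 13065951 (1198 kb, 75.3% and 12.4%). The last of these 5 was at 88535072 to 89637399 of chromosome 10 (1102 kb, 82.0% and 13.7%). In each of them ESC coverage was far below that of iPSC. Most of the widest ESC domains were dense in both lists. The widest ran from 22056349 to 22583746 of chromosome 19 (527 kb), with 84.3% covered in ESC and 81.7% in iPSC. Those at 216897647 to 217274305 of chromosome 1 (377 kb, 75.3% in ESC and 76.1% in iPSC), 189586 to 561953 of chromosome 12 (372 kb, 66.9% and 71.3%) and 8246 to 376682 of chromosome 7 (368 kb, 69.8% and 73.7%) each lay within 0.190 Mb of a chromosome end. The exception was the domain at 124884116 to 125292197 of chromosome 9 (408 kb), covered over 76.9% in ESC and 30.5% in iPSC.

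Domains with no peak of the other list were small beside these. The widest of ESC lay at 21151143 to 21187793 of chromosome 19 (36.7 kb, 19 peaks over 63.7% of it) and bore no peak of the other 3 marks in either cell type. The next were at 46893886 to 46911035 of chromosome 10 (17.2 kb), 6212805 to 6227629 of chromosome 4 (14.8 kb), 773675 to 786570 of chromosome 19 (12.9 kb) and 497127 to 509173 of chromosome 15 (12.05 kb). The last of them had the highest fold of the 5, 4.41, and H3K27ac over 6.05% of its length in ESC. In iPSC the widest was at 82794502 to 82839199 of chromosome 13 (44.7 kb), and the next were at 76497783 to 76536160 of chromosome 7 (38.4 kb), 122678672 to 122711236 of chromosome 1 (32.6 kb), 24074164 to 24099944 of chromosome 19 (25.8 kb) and 60928364 to 60949551 of chromosome 14 (21.2 kb). The domain on chromosome 7 began just before a run of 100 kb bins that were at least 20 percentage points denser in iPSC, and the other 4 lay inside such runs.

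By chromosome, ESC coverage was even apart from chromosome 19, and iPSC coverage was not. ESC coverage ran from 6.69% on chromosome 16 to 9.45% on chromosome 8, with 16.2% on chromosome 19. Without chromosome 19 its mean was 8.29% ± 0.625 (SD over 19 chromosomes, which are not replicates). The iPSC coverage ran from 4.67% on chromosome 16 to 11.8% on chromosome 20, with 15.6% on chromosome 19, and its mean without chromosome 19 was 6.88% ± 1.62. Chromosome 16 was thus lowest and chromosome 19 highest in both lists. On chromosome 19, domains over 20 kb made up 51.9% of the sequence in domains in ESC and 65.4% in iPSC, and numbered 100 and 102, the most of any autosome in both lists. Spearman's rho between the lists over the 20 autosomes was 0.698 and Pearson's r 0.845. Both are descriptions over chromosomes that share the same 2 lists, and without chromosome 19 they were 0.647 and 0.541.

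The ratio of iPSC to ESC coverage was below 1 on 17 autosomes and above 1 on 3. It was lowest on chromosome 18 (0.684), followed by chromosome 16 (0.697) and chromosome 9 (0.702), and its median was 0.753. It was 1.36 on chromosome 20, where 11.8% was covered in iPSC and 8.68% in ESC, and 1.09 on chromosome 10 (8.25% and 7.58%). On chromosome 8 both lists covered nearly the same, 9.46% in iPSC and 9.45% in ESC. The iPSC list had fewer peaks than the ESC list on all 20 autosomes, chromosome 20 included. The 3 chromosomes with a ratio above 1 were also the ones with the most 100 kb bins that were denser in iPSC by at least 20 percentage points: 60 on chromosome 20, 55 on chromosome 10 and 46 on chromosome 8. As a share of its bins, chromosome 19 (3.31%, with a ratio of 0.960) stood just above chromosome 8 (3.28%). Without the bins denser in iPSC the ratio lay below 1 on every autosome, at 0.736 ± 0.0323 (SD over 20), from 0.683 on chromosome 18 to 0.841 on chromosome 19. Leaving out bins that were picked for high iPSC coverage lowers the ratio and narrows its range by construction, so these values only describe where the excess lay. With each list scaled to the same autosomal total, 7 autosomes had the higher coverage in iPSC.

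**Figure D2:**
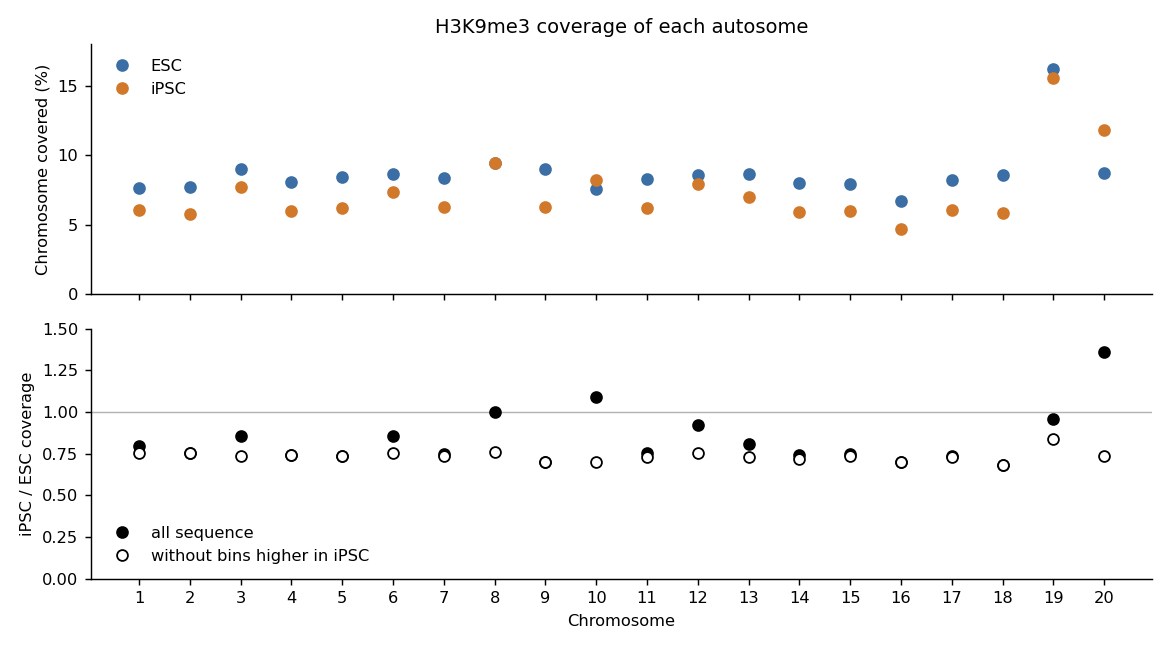
H3K9me3 coverage of each autosome in percent in ESC (blue) and iPSC (orange), and below it the ratio of iPSC to ESC coverage with all sequence (filled) and without the 100 kb bins that were at least 20 points denser in iPSC (open). Chromosomes 8, 10 and 20 have ratios of 1.001, 1.09 and 1.36 with all sequence and lie among the other autosomes once those bins are left out.

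The class over 20 kb held more of the sequence in domains in iPSC on chromosomes 8, 10 and 20, but not only there. On chromosome 20, domains over 20 kb made up 56.4% of the sequence in domains in iPSC and 14.9% in ESC, though they numbered 38 and 27. On chromosome 10 these shares were 48.1% and 12.6%, and on chromosome 8 33.2% and 11.9%, where the number was lower in iPSC (38 against 49). On chromosome 18 the class nearly vanished from the iPSC list, with 2 domains against 12 in ESC. In number, the class was larger in iPSC on 10 autosomes, smaller on 9 and equal on 1. In span it was larger in iPSC on 13.

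The density of H3K9me3 was next compared in 25926 bins of 100 kb. Median coverage of a bin was 6.80% in ESC and 4.75% in iPSC, and the 95th percentiles were 19.8% and 16.8%. At the top the order turned, with 99th percentiles of 40.1% in ESC and 68.9% in iPSC. Coverage was lower in iPSC in 22719 bins (87.6%), higher in 3097 (11.9%) and equal in 110. This deficit was only roughly proportional. With the bins sorted by ESC density into 10 groups of nearly equal size, the ratio of median iPSC to median ESC coverage rose at every step. It was 0.643 in the sparsest group, between 0.680 and 0.734 in the next 8, and 0.758 in the densest. The ratios of means did not rise in this way. They lay between 0.772 and 0.845, with 0.839 in the sparsest group, so the low value there was one of medians. Sorting by ESC density, the denominator, also acts on these ratios. A lower level over most bins also moves with the depth and threshold of a list, which are unknown.

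The order of the bins was largely the same in both lists. Spearman's rho was 0.916 over all bins, and Pearson's r, which weighs the densest bins more, was 0.719. These are descriptions over bins that are neighbours and not independent. For comparison over the same bins, rho was 0.947 for H3K4me3, 0.849 for H3K27ac and 0.443 for H3K27me3. When bins were sorted by coverage into 0, under 5, 5 to 20, 20 to 50 and at least 50 percent, 19717 (76.1%) fell in the same group in both lists. Of the 194 ESC bins covered over at least 50%, 171 (88.1%) were so in iPSC. Of the 414 iPSC bins covered to that degree, the same 171 made up 41.3%, and 184 (44.4%) had 5 to 20% coverage in ESC. The densest group thus held 16.6% of all iPSC coverage and 6.17% of that of ESC. No bin of the group at 0 in ESC (167 bins) reached 5% in iPSC, and none of the 488 at 0 in iPSC reached 5% in ESC.

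**Figure D3:**
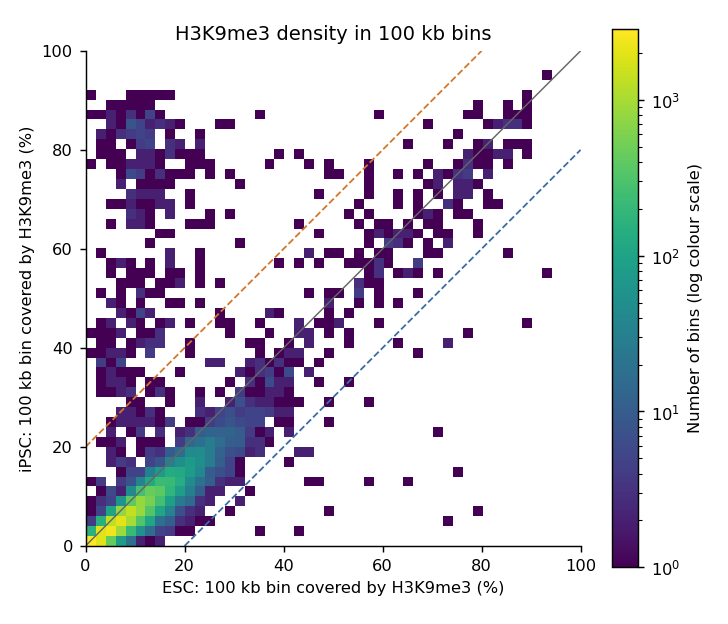
Coverage by H3K9me3 of 25926 autosomal bins of 100 kb in ESC (horizontal, percent) and iPSC (vertical, percent), as counts in squares of 2 by 2 points with a logarithmic colour scale. The grey line marks equal coverage and the dashed lines a difference of 20 points: most bins lie just below the grey line, and 329 lie on or above the upper dashed line against 32 on or below the lower one.

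Bins that were at least 20 points denser in iPSC numbered 329 (1.27% of 25926), and bins at least 20 points denser in ESC 32 (0.123%). A bin of typical ESC density cannot fall by 20 points, so the 2 counts are not on an equal footing. At a difference of 10 points they were 399 and 270, so the excess on the iPSC side was much smaller at that limit. At a difference of 40 points they were 219 and 8, and with both lists scaled to the same total 378 and 17. The 329 bins formed 37 runs of adjacent bins on 14 autosomes, and 13 runs of 10 or more bins held 242 of them (73.6%). Chromosomes 2, 4, 5, 9, 16 and 18 had none. In these bins ESC coverage had a median of 11.2%, with a range from 1.28% to 59.3%, and iPSC coverage a median of 70.4%, from 25.6% to 91.6%. H3K9me3 chose these bins, so these levels are a description.

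The 5 runs with the largest summed difference held 139 bins. That at 131200001 to 135200000 of chromosome 8 (40 bins) averaged 79.5% in iPSC, with no bin under 43.4%, and 10.98% in ESC. The run at 5000001 to 8400000 of chromosome 20 (34 bins) averaged 82.1% and 9.27%, and its lowest iPSC bin, 56.2%, exceeded its highest ESC bin, 21.1%. Within the borders of these 2 runs the iPSC peaks joined to 13 and 8 domains, and the ESC peaks to 310 and 271. The run at 1900001 to 4700000 of chromosome 6 (28 bins) averaged 65.6% in iPSC against 15.7% in ESC. The 21 bins from 175000001 to 177100000 of chromosome 3 averaged 77.9% and 13.7%, and the 16 bins from 88100001 to 89700000 of chromosome 10 averaged 75.9% and 16.8%. The runs of chromosomes 8, 20 and 3 ended abruptly. In the 5 bins on each side, iPSC coverage averaged 5.85% around the run of chromosome 8, 2.33% around that of chromosome 20 and 3.83% around that of chromosome 3. ESC coverage there averaged 10.3%, 2.42% and 6.83% in the same order. On chromosome 10 the flanks were dense in both lists, at 55.8% in iPSC and 37.2% in ESC. They took in bins of shorter runs that were also denser in iPSC, at 87800001 to 88000000 and 89900001 to 90300000. Beyond these runs the density also ended abruptly. Between neighbouring bins, iPSC coverage fell from 75.6% to 5.08% on the lower side and from 76.7% to 9.27% on the upper side. A run of 19 bins at 81700001 to 83600000 of chromosome 13 stood lower, at 39.0% in iPSC and 6.91% in ESC, and its iPSC peaks stayed in 66 domains of at most 99.97 kb.

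**Figure D4:**
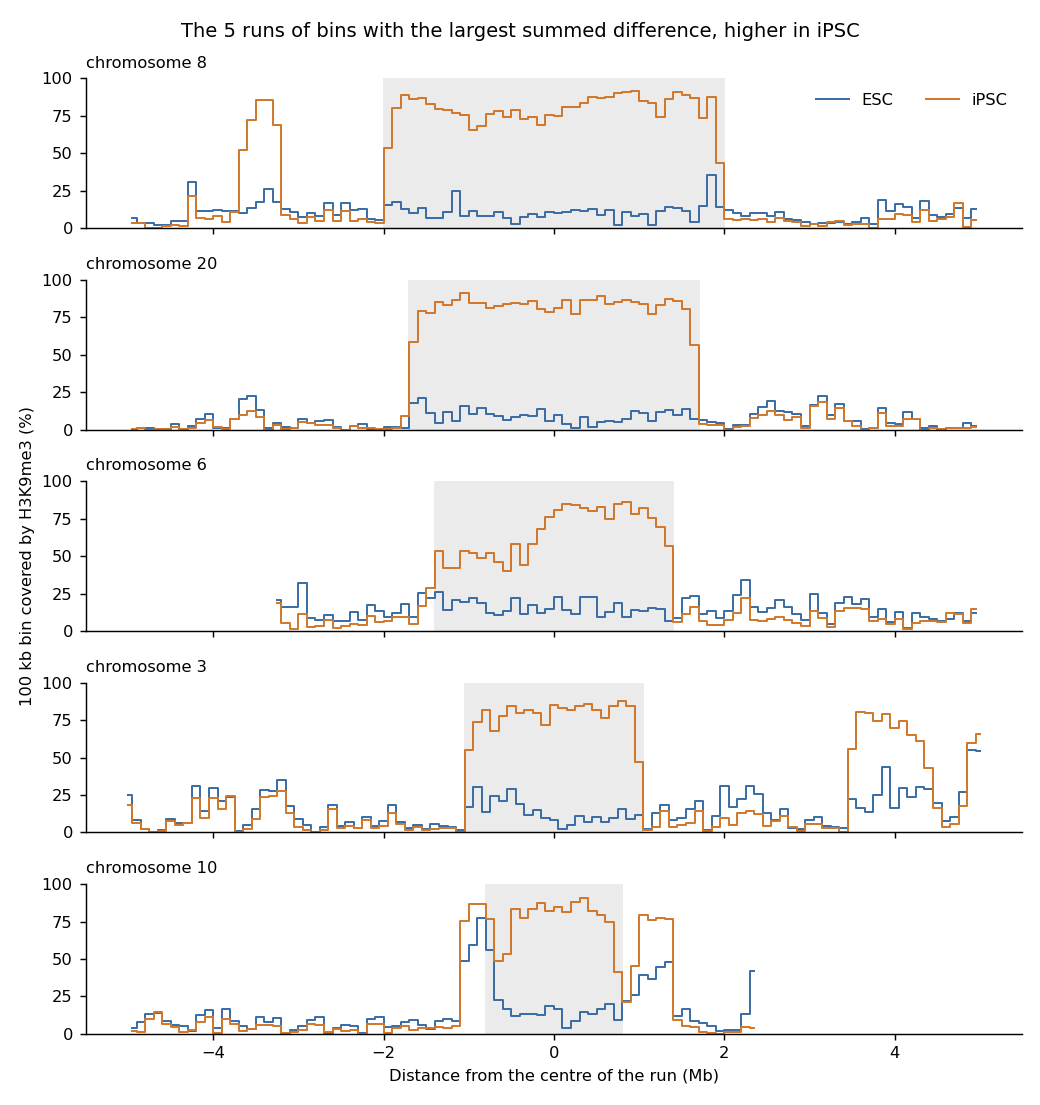
H3K9me3 coverage in percent of 100 kb bins in ESC (blue) and iPSC (orange) around the centres of the 5 runs with the largest summed difference (grey), which lie on chromosomes 8, 20, 6, 3 and 10; lines stop at chromosome ends. Inside the grey areas iPSC averages between 65.6% and 82.1% and ESC between 9.27% and 16.8%, while outside them the lines mostly run together, apart from shorter runs beside those of chromosomes 8, 3 and 10.

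The peaks inside these bins are described next; the bins were chosen by coverage, which is made of peak number and width, so nothing is read from a difference in these. There were 35.2 iPSC peaks per bin against 15.6 of ESC, where bins called in neither direction had 7.77 of iPSC and 10.02 of ESC. The median iPSC peak was 982 bp wide there and 509 bp in the uncalled bins, and the mean widths were 1884 and 802 bp. The median fold of iPSC peaks, the authors' value, was 2.70 and 2.58 in the same order. ESC peaks looked alike in both places, with median widths of 544 and 525 bp and median folds of 2.46 and 2.54. Nearly all ESC peaks of these bins, 97.0% (95% Wilson interval 96.5 to 97.4), overlapped an iPSC peak, where iPSC peaks cover most of the sequence. Of the iPSC peaks there, 33.9% (33.0 to 34.7) overlapped an ESC peak. Over all autosomal peaks these shares were 63.1% of ESC and 81.6% of iPSC peaks, and in the uncalled bins 62.5% and 84.3%. The choice of bins by coverage acts on these shares too, and the intervals cover counting error only.

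The 32 bins that were denser in ESC formed 16 short runs on 11 autosomes, the longest of 5 bins. Of these bins, 20 of 32 (62.5%) had their centre within 2 Mb of an end, as did 10 of the 16 runs. Only bins dense in ESC can fall by 20 points, and such bins were often near an end: 53 of the 194 ESC bins covered over at least 50% lay within 2 Mb, and 24.6% of those dense in both lists. The share was 2.90% of the uncalled bins and 8.51% of the bins denser in iPSC. The largest, at 124000001 to 124500000 of chromosome 14, reached to within 0.0122 Mb of the furthest peak of the chromosome. It was covered over 58.9% in ESC and 7.44% in iPSC, and its ESC peaks formed a domain of 345 kb. On chromosome 9 the 5 bins from 124800001 to 125300000 averaged 68.1% in ESC against 25.4% in iPSC. On chromosome 12 the 5 bins from 125400001 to 125900000 averaged 51.2% against 22.5%. The run at 162500001 to 162800000 of chromosome 7 remained dense in iPSC, with 81.1% in ESC and 51.1% in iPSC. The fifth, at 35300001 to 35500000 of chromosome 19, lay 15.9 Mb from an end, with 46.0% and 12.3%. In these runs the iPSC list was not empty, and the difference was one of density.

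Both lists were denser towards the ends of chromosomes. In ESC the mean coverage of a bin was 16.6% ± 17.3 (SD over bins) within 2 Mb of an end, 11.7% ± 9.95 at 2 to 5 Mb, 8.92% ± 6.82 at 5 to 10 Mb, 8.30% ± 7.02 at 10 to 20 Mb and 7.85% ± 7.36 further in. In iPSC the means were 13.7% ± 19.6, 10.2% ± 15.6, 9.65% ± 16.6, 6.63% ± 8.64 and 6.20% ± 7.70. The spread between bins exceeded the differences between zones. At 5 to 10 Mb the iPSC mean was above that of ESC, with a ratio of 1.08, and 100 of the 2000 bins there (5.00%) were at least 20 points denser in iPSC, among them those of the chromosome 8 and chromosome 20 runs. The medians did not turn in that zone, at 7.62% in ESC and 5.17% in iPSC. Of the bins denser in iPSC, 180 (54.7%) lay within 10 Mb of an end, where 14.8% of the uncalled bins lay. This share rests on a few long runs: 11 of the 37 runs lay within 10 Mb of an end, and the median distance of a run was 22.6 Mb.

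The other marks, which had no part in choosing bins or domains, differed between the bin classes, but H3K27me3 did not always go with H3K9me3. H3K27me3, the mark of Polycomb repressive complexes, covered 31.0% ± 18.1 (SD over bins) of the bins denser in iPSC in the iPSC list and 1.88% ± 4.61 in the ESC list, against 3.10% ± 4.82 and 2.08% ± 5.52 of the uncalled bins. It was higher in iPSC in 328 of the 329 bins, or 99.7%, and in 72.9% of the uncalled bins. In the 32 bins denser in ESC it was higher in iPSC as well, against the direction of H3K9me3. It covered 12.6% ± 7.84 of them in iPSC and 5.18% ± 6.18 in ESC, and was higher in iPSC in 28 (87.5%). Bins dense in both lists had more H3K27me3 in iPSC too: in the 171 bins covered over at least 50% in both lists, H3K27me3 covered 26.3% ± 14.5 in iPSC and 0.721% ± 3.72 in ESC. Some of the 171 were also called. In the 175 uncalled bins covered over at least 50% in ESC, H3K27me3 covered 25.5% in iPSC and 0.744% in ESC. In the iPSC list H3K27me3 thus rose with H3K9me3 density in general, from 1.40% in bins without H3K9me3 to 33.2% in bins covered over at least 50%, or 25.7% with the called bins left out. In the ESC list it went from 2.00% to 0.936% over the same groups. By domain width, iPSC H3K27me3 stood higher only in the widest class. It covered 21.2% of the span of iPSC H3K9me3 domains under 1 kb and 20.2% at 1 to 5 kb. At 5 to 20 kb it covered 17.8%, and over 20 kb 30.2%. ESC H3K27me3 covered 4.23% of the span of ESC H3K9me3 domains under 1 kb and 1.35% over 20 kb. Whether the iPSC peaks of both marks reflect both modifications on the same chromatin was not tested.

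Active marks were sparser in iPSC in the bins denser in H3K9me3 there. H3K4me3 covered 3.65% ± 3.80 of the bins denser in iPSC in ESC and 1.57% ± 2.45 in iPSC, and was lower in iPSC in 91.8% of them, against 40.3% of the uncalled bins. H3K27ac covered 2.23% ± 2.25 and 0.261% ± 0.486. It was lower in iPSC in 96.7% of these bins, but also in 94.7% of the uncalled bins, where it covered 3.98% ± 3.38 in ESC and 2.12% ± 1.97 in iPSC. The bins denser in ESC showed no such pattern for H3K4me3, with 5.30% ± 4.50 in ESC and 5.53% ± 4.77 in iPSC, lower in iPSC in 53.1% of 32 bins. H3K27ac there covered 1.503% ± 1.90 in ESC and 0.388% ± 0.643 in iPSC. By width, ESC H3K27ac covered 6.03% of the span of ESC H3K9me3 domains under 1 kb and 0.784% of those over 20 kb, and ESC H3K4me3 7.74% and 3.65%.

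**Figure D5:**
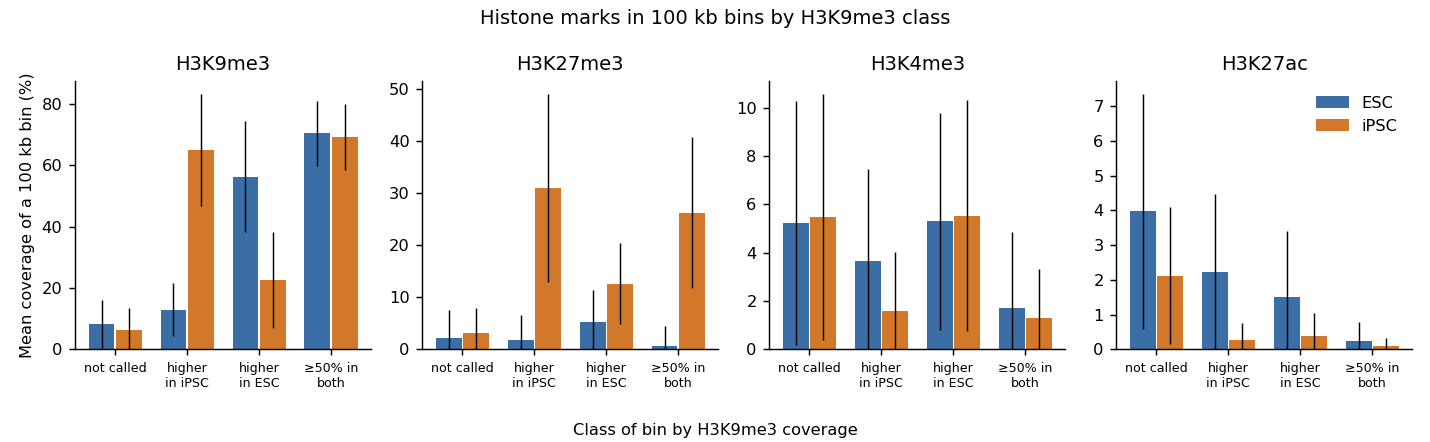
Mean coverage in percent of 100 kb bins by each of 4 marks in ESC (blue) and iPSC (orange), for bins called in neither direction (25565), bins at least 20 points denser in H3K9me3 in iPSC (329) or in ESC (32), and bins covered over at least 50% by H3K9me3 in both lists (171, some of which are also in another class). Bars start at 0, lines are the SD over bins (cut at 0), and H3K27me3 in iPSC stands at 31.0% in the bins denser in iPSC and 26.3% in those dense in both.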

How the data were processed

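The members, the width classes and the bins were chosen with earlier results of these data known. The authors called peaks with MACS2, and SAMtools 1.10, Picard and deepTools are also named, per the submitters' processing notes; no aligner, genome build, threshold or pooling is named in the sources used here. Each deposited broad list gives a fold enrichment per peak, a ratio made by the peak caller, and the −log10 of its q-value (lowest 1.00); p-values were not used. No counts or depths were at hand.

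Peaks of chromosomes 1 to 20 did not overlap within a list. They were joined within 3 kb, sorted by width, and set against the other list by an overlap of at least 1 bp. Chromosome length was the furthest peak end in the 8 lists. Bins of 100 kb started at position 1, and the 20 partial end bins were left out. Wilson intervals are at 95%. The regions named are, per list, the 5 widest domains, the 5 widest without a peak of the other list, and the 5 runs with the largest summed difference per direction; the domain counts, pairs, other runs and bin groups beside them were chosen after their values were seen. The gene table at hand (Panubis1.0) ended over 5 Mb from the furthest peak on 12 of 21 chromosomes, so no genes were assigned. Interval functions were tested on simulated lists. Python 3.11.15, NumPy 2.4.6, pandas 2.3.3, SciPy 1.17.1 and Matplotlib 3.10.9 were used. Alternatives were the −log10 q limit, list length, joining distance, overlap, bin size, call size and scaling.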

Additional observations from a re-analysis of the deposited data

Results flagged for a closer look

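Peaks outside the autosomes were not compared above. On unplaced scaffolds there were 36055 H3K9me3 peaks in ESC and 34532 in iPSC, and on the X 52844 and 7851. The numbers on the scaffolds were thus close to each other, and those on the X were not.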

How the results depend on the processing

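No paired analysis was possible because each cell type has 1 peak list, with no replicate numbers and no test. For the same reason leaving out single libraries was not possible. The ratios of covered sequence and of span, Spearman's rho and the run differences were recomputed as alternatives chosen after seeing the data.

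With peaks of −log10 q of at least 2, coverage was 7.51% in ESC and 6.003% in iPSC (ratio 0.799), 557 ESC and 639 iPSC domains were over 20 kb (span ratio 1.73), 65.7% of ESC and 88.8% of iPSC domains met a peak of the other list, and 68.4% of ESC domains over 20 kb met one of iPSC. At a limit of 3 coverage was 6.07% and 4.45% (0.734), the span ratio 1.62, and these 3 shares 57.5%, 86.3% and 63.7%, with 49.7% of iPSC domains over 20 kb meeting one of ESC, 411 ESC and 535 iPSC domains over 20 kb, 211 bins higher in iPSC and 1 chromosome higher in iPSC. With the ESC list shortened, ESC coverage was 7.63% (ratio 0.913), 570 ESC and 738 iPSC domains were over 20 kb, the span ratio 2.05, the shares 75.4% and 81.2%, those over 20 kb 75.6% and 55.7%, and 5 chromosomes were higher in iPSC.

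Joining set the class over 20 kb. Without joining there were 54 domains in ESC and 60 in iPSC, a span ratio of 1.03, shares in common of 63.1% and 81.6%, and 51.7% of wide iPSC domains on wide ESC ones. Joined within 1 kb, there were 290 and 584 (span ratio 2.25), with shares of 65.0% and 84.2%, and of 72.4% and 37.3% over 20 kb. Joined within 10 kb, there were 12081 and 7257, the span ratio turned to 0.617, and the shares were 79.1% and 90.7%, and 53.1% and 87.4% over 20 kb. An overlap of at least 50% of the domain's length left 37.8% of ESC and 66.6% of iPSC domains in common.

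Bins of 50 kb gave 665 higher in iPSC and 84 in ESC, and bins of 1 Mb 29 and 0. A difference of 10 points gave 399 higher in iPSC and 270 in ESC, and of 40 points 219 and 8. Scaled to equal totals, 17 bins were higher in ESC and 7 chromosomes in iPSC. Without the bins higher in iPSC, 0 chromosomes were higher in iPSC. Spearman's rho stayed between 0.869 and 0.9199, and the differences of the 10 named runs kept their direction in 40 of 40 recomputed values. The cause of these changes was not tested. Depth is unknown, so the lower limit of detection in either list cannot be given.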
